A study of Mus musculus with 14 samples.

Results

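The 9 genes described here encode transcription factors of the enteroendocrine lineage, the hormone-secreting cells of the gut epithelium. They were taken by symbol from a list of names, Neurog3, Pax4, Insm1, Neurod1, Nkx2-2, Rfx6, Pax6, Isl1 and Fev, and are 9 of the 36536 genes in each count table. From textbook knowledge of endocrine differentiation, Neurog3, Pax4, Insm1 and Neurod1 were set apart as 4 early factors and Nkx2-2, Rfx6, Pax6, Isl1 and Fev as 5 late factors. The rule uses names and no measured value, but the 9 factors and the gene lists used below were chosen with earlier results of these data known.

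Enteroendocrine cells arise from crypt progenitors that escape Notch signalling and express ATOH1, a basic helix-loop-helix (bHLH) activator that all secretory cells of the epithelium pass through. A minority of these progenitors then switch on Neurog3 for a short time. Neurog3 is a bHLH factor without which no enteroendocrine cells form, and it activates Pax4, Insm1 and Neurod1, followed by the factors that set and keep the hormone profile. Goblet and Paneth cells come from the same ATOH1-positive progenitors without Neurog3.

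The study sequenced total RNA of mouse gut epithelium, 14 libraries that fall into 6 groups, to ask what ATOH1 controls there. Knockout crypts (KO, 2 libraries in each of colon and ileum) came from mice aged 6 to 8 weeks with both Atoh1 alleles floxed, written Atoh1lox/lox, and VilCreERT2, a tamoxifen-inducible recombinase driven by the epithelial Villin promoter; the labels give no inducing treatment. Control crypts (WT, 2 libraries per tissue) came from littermates of the same age that carry Atoh1lox/WT and VilCreERT2, so the group that the labels call WT has 1 floxed allele and the same recombinase. The GFP libraries (3 per tissue) hold live, 7AAD-negative, GFP-positive cells sorted by flow cytometry from crypts of Atoh1GFP/GFP mice, in which ATOH1 is made as a working fusion with GFP; no age is given for these. No label says that the libraries of a group are from separate animals, so each p-value reflects only how far these samples spread, which may be technical. Between GFP and crypt libraries, sorting, mouse line and cell mixture differ together and cannot be told apart.

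Gene counts were 7478418 to 12991891 per library, and the 9 factors had 0 to 43 reads each in a library. Levels are in CPM, read counts divided by a library size scaled with TMM (a trimmed-mean factor), and the intervals given below are exact 95% limits for counting error only. Mitochondrial ribosomal RNA took 30.02 to 44.88% of gene counts in the GFP libraries and 0.14 to 0.22% in crypts. In ileum GFP 1, 52.29% of the reads placed inside or outside genes lay outside, above the other 13 libraries (9.3 to 31.92%). Atoh1 followed the labels in every library: it was at 295, 231 and 264 CPM in colon GFP, 62.6 and 44.7 in colon WT, 5.2 and 5.9 in colon KO, 195, 323 and 296 in ileum GFP, 41.0 and 39.5 in ileum WT, and 1.02 and 0.526 in ileum KO. Summed over 9 enteroendocrine marker genes (Chga, Chgb, Neurod1, Scg2, Scg3, Tph1, Gcg, Cck and Syp), the level was 147 to 153 CPM in colon WT, 65.4 to 98.5 in colon KO and 26.7 to 53.9 in colon GFP, and 152 to 156, 34.5 to 36.7 and 21.8 to 42.8 in the same groups of ileum. The 6 goblet markers summed to 60400 to 65500 CPM in colon GFP and 41500 to 127000 in ileum GFP, against 9510 to 21100 and 10800 to 12800 in WT. In KO they summed to 1710 to 1760 CPM in colon and 206 to 544 in ileum, and the 5 Paneth markers of ileum to 1040 to 1670, against 9830 to 26700 in WT. The 5 tuft markers summed to 12.1 to 18.5 CPM in colon KO and 4.76 to 5.86 in ileum KO, against 17.1 to 39 and 16.5 to 240 in WT. The part of these cell types in the levels below was not tested. In bulk RNA, fewer cells of a type and less RNA per cell cannot be told apart, and this holds for every level below.

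ATOH1, Neurog3 and Neurod1 all bind E-boxes, sites of the form CANNTG. RefSeq promoter sequence (GRCm38.p6) was matched for 7 of the 9 factors, and the 250 bases before the start site of 4 of them are shown, because each held at least 1 E-box and their levels are described in most detail below. Each is given 5′ to 3′ in the direction of transcription, with every CANNTG in capitals (the motif reads the same on both strands as a pattern).
Neurog3, chr10:62132840-62133089, plus strand: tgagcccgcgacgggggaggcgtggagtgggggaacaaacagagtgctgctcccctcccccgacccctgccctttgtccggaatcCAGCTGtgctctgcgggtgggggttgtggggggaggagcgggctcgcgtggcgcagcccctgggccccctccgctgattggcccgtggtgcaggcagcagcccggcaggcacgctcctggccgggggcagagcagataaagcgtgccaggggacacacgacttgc
Neurod1, chr2:79456637-79456886, minus strand: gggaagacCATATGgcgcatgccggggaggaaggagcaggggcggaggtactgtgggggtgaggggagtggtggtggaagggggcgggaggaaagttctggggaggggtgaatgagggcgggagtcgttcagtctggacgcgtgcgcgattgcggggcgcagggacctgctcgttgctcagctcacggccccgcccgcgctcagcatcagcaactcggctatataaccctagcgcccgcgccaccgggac
Nkx2-2, chr2:147186403-147186652, minus strand: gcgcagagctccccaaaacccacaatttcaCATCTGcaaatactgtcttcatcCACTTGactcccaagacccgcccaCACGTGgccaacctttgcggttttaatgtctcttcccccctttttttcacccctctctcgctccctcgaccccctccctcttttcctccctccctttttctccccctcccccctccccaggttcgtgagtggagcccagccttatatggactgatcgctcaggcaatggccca
Isl1, chr13:116309689-116309938, minus strand: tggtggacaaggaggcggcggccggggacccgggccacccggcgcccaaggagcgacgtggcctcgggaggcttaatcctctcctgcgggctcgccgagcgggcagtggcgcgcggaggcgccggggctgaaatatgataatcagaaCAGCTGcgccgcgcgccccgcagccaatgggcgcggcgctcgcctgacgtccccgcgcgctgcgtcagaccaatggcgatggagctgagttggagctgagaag
The Neurog3 window held 1 E-box, CAGCTG, at position -165 from the start site, and the Isl1 window held the same 6 letters at -103. The Neurod1 window held 1 E-box of another core, CATATG at -242. The Nkx2-2 window held 3, each with another core. The windows of Rfx6, Fev and the upstream start site of Pax6 held none, and that of the second Pax6 start site held 1. Of 32851 RefSeq promoter windows of this length, 66.2% held at least 1 CANNTG, 13% held CAGCTG and 14.4% held CAGATG in either orientation. These matches are descriptions of sequence and not binding sites.

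Neurog3, the factor that starts the endocrine programme, was near zero in knockout crypts, and in sorted cells it was below the control level by an amount that the test did not call. Its reads numbered 25 and 23 in the colon WT libraries (2.16 and 1.57 CPM) and 19 and 22 in ileum WT (1.45 and 1.83 CPM). Both colon KO libraries had 0 reads (upper 95% counting limits of 0.266 and 0.259 CPM), and the ileum KO libraries had 0 and 1 (0 and 0.0752 CPM). In sorted cells there were 14, 8 and 10 reads in colon (1.49, 0.996 and 1.49 CPM) and 8, 10 and 2 in ileum (1.36, 1.22 and 0.286 CPM). Every KO library was below every WT and GFP library of its tissue. Each GFP library was below both WT libraries as well, but counting intervals overlapped: ileum GFP 2 at 1.22 CPM has an interval of 0.587 to 2.25 and ileum WT 1 at 1.45 CPM one of 0.871 to 2.26.

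**Figure D1:**
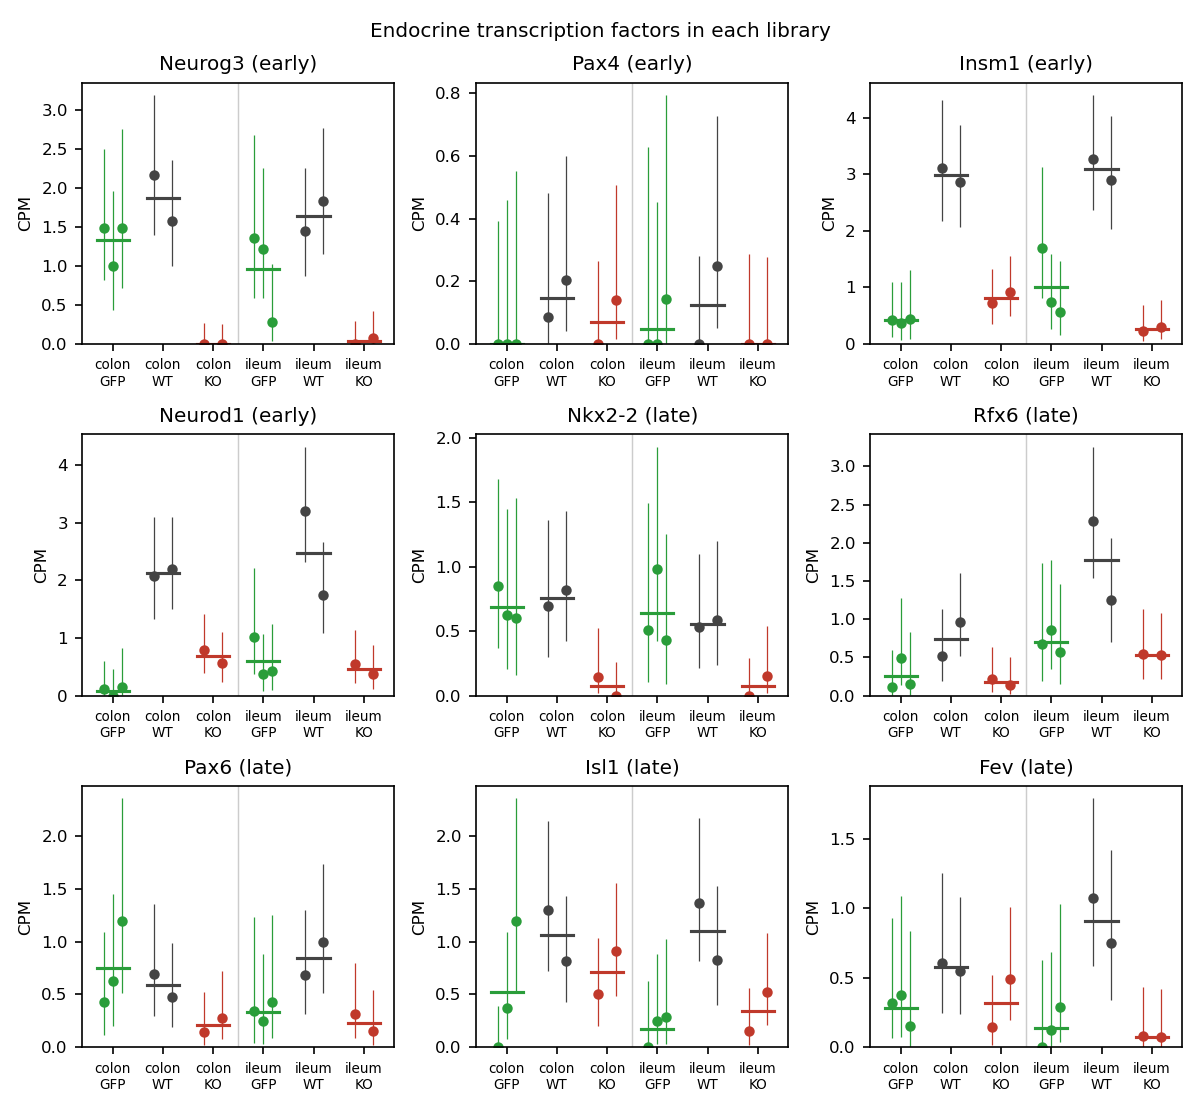
Level of each of the 9 factors (y axis, CPM; scales differ between panels) in the 14 libraries of 6 groups (x axis); points are libraries, thin bars the exact 95% counting interval, and thick bars the group mean. Neurog3 and Nkx2-2 in GFP sit near the WT points, while Insm1 and Neurod1 in GFP sit well below them, and Neurog3 in KO is at or near 0.

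Counted over the group, Neurog3 in colon WT was 17.2-fold higher than in colon KO if the 0 is set to 3 reads. The exact 95% counting limit put the ratio at 13.4 or more. In ileum the ratio of WT to KO was 42.5, with a counting interval of 7.22 to 1720. In edgeR's quasi-likelihood test over all 14415 genes of the 8 crypt libraries, the adjusted p was 0.09525 in colon and 0.05608 in ileum, neither under 0.05. Both passed in a fit of all 14 libraries (0.01639 and 0.01904) and with DESeq2 (0.004714 and 0.04852), and ileum also passed without ileum WT 1 (0.01509). The mean of both tissues uses all 8 libraries and takes colon and ileum libraries as independent. Crypt libraries that share a file number across tissues had correlations of 0.31 and 0.27, and the labels do not give that number's meaning. A block for it was not run for KO against WT, here or for Insm1 and Neurod1 below. In this mean Neurog3 fell and passed, with an edgeR adjusted p of 0.01295. Leaving out colon WT 2 or any 1 of the 4 KO libraries ended this call, at adjusted p values of 0.05435 to 0.06469, and the fitted log2 fold changes (-7.63 in colon, -5.08 in ileum) depend on the prior count and are no bound. The gene Fam241b overlaps Neurog3 on the opposite strand, and no source used here gives the strand setting of the counting. Its mean level was 10.8 to 12.4 CPM in all 6 groups, 10.8 ± 0.414 CPM (SD, n = 2) in colon KO, where Neurog3 had no reads.

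In sorted cells Neurog3 was not shown to differ from control crypts. The log2 fold change of GFP over WT was -0.49 (SE 0.61, edgeR adjusted p = 0.5361) in colon and -0.77 (SE 0.63, adjusted p = 0.3212) in ileum. From the pooled counts, the ratio of GFP to WT was 0.723 (0.448 to 1.16) in colon and 0.583 (0.324 to 1.02) in ileum. Atoh1 itself was 4.91 and 6.74 times the WT level in the same cells, called in both tissues (edgeR adjusted p = 8.25e-06 and 1.63e-06).

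Pax4, a paired-box factor that acts just after Neurog3, was barely detected. It had 0 to 3 reads in each of the 14 libraries, and the total was 4 reads in colon WT, 2 in colon KO, 0 in colon GFP, 3 in ileum WT, 0 in ileum KO and 1 in ileum GFP. No difference in Pax4 was detectable at this depth.

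Insm1, a zinc-finger factor downstream of Neurog3, was high in control crypts and lower in both knockout crypts and sorted cells. The WT libraries had 36 and 42 reads in colon (3.12 and 2.87 CPM) and 43 and 35 in ileum (3.28 and 2.91 CPM). The KO libraries had 10 and 13 in colon (0.722 and 0.913 CPM) and 3 and 4 in ileum (0.234 and 0.301 CPM). Sorted cells had 4, 3 and 3 in colon (0.425, 0.374 and 0.448 CPM) and 10, 6 and 4 in ileum (1.7, 0.734 and 0.571 CPM). No KO or GFP library reached the lowest WT library of its tissue. In colon the GFP libraries were the lowest of the 3 groups, whereas in ileum the KO libraries were.

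Insm1 fell in ileum KO by 3.45 on the log2 scale (SE 0.39, edgeR adjusted p = 0.01417). It was the only member of 5 tested to be called there, beside 1.22% of all 14415 genes called in either direction. It was not called without ileum KO 1 (adjusted p = 0.1471), without ileum KO 2 (0.1796), or in a fit of only the 4 ileum crypt libraries (0.1436). In colon the log2 fold change was -1.87 (SE 0.34, adjusted p = 0.1538), not called. Over both tissues Insm1 fell by 2.66 (SE 0.26, adjusted p = 0.005569), which no longer passed without colon KO 1 (0.05311) or without ileum KO 2 (0.05212). The difference between the colon and ileum effects, 1.58 (SE 0.51), was not called in edgeR's interaction test (adjusted p = 0.9998).

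Against the colon WT libraries, Insm1 in sorted cells fell by 2.82 on the log2 scale (SE 0.52, edgeR adjusted p = 0.0006858). In ileum it fell by 1.65 (SE 0.48, edgeR adjusted p = 0.01104). The colon call held in every alternative run, at adjusted p values of 0.0001627 to 0.007247. The ileum call was lost without ileum WT 1 (0.05039) and in a fit of only the ileum GFP and WT libraries (0.055). Without ileum GFP 1, the library with most reads outside genes, it was -2.21 (0.001752).

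Neurod1, a bHLH factor that Neurog3 switches on and that maturing endocrine cells keep, had the widest gap of the 5 tested factors between colon sorted cells and colon control crypts. It had 24 and 32 reads in colon WT (2.08 and 2.19 CPM) and 42 and 21 in ileum WT (3.2 and 1.74 CPM). It had 11 and 8 in colon KO (0.795 and 0.562 CPM) and 7 and 5 in ileum KO (0.547 and 0.376 CPM). The colon GFP libraries had 1, 0 and 1 reads (0.106, 0 and 0.149 CPM) and those of ileum 6, 3 and 3 (1.02, 0.367 and 0.428 CPM). Again no KO or GFP library overlapped WT, and the 3 colon GFP libraries were also below both colon KO libraries.

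Neurod1 fell in colon sorted cells by 4.5 on the log2 scale (SE 0.77, edgeR adjusted p = 0.0003855). In ileum sorted cells it fell by 2.06 (SE 0.6, edgeR adjusted p = 0.01083). With 2 reads in all in colon GFP, the ratio of WT to GFP was 25.8 with a counting interval of 6.82 to 218. The colon call held in every alternative run, and the ileum call was lost without ileum WT 1 (adjusted p = 0.11). Between the sorted cells of the 2 tissues Neurod1 fell by 2.66 in colon relative to ileum (SE 0.86, edgeR adjusted p = 0.03956). This was 1 of 5 members tested, against 22.7% of 15274 genes, and the call was lost without any 1 colon GFP library or without ileum GFP 1 (adjusted p of 0.05703 to 0.1208). DESeq2 (0.08556), a fit of all genes with any count (0.06761) and a block for the number that a colon and an ileum file share (0.1818) also lost it. The test of whether GFP and WT differ by unequal amounts in the 2 tissues gave -2.44 (SE 1.05, adjusted p = 0.2495), not called.

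In knockout crypts Neurod1 had log2 fold changes of -1.65 in colon (SE 0.46, edgeR adjusted p = 0.3606) and -2.37 in ileum (SE 0.48, adjusted p = 0.07695), neither called. The ileum value passed without ileum WT 2 (0.03722). Over both tissues it fell by 2.01 (SE 0.33, adjusted p = 0.03037). That call was lost without any 1 of the 4 colon libraries or either ileum KO library (0.08611 to 0.1553). Neurod1 shares exon sequence on the same strand with Cerkl, which had 27 reads over all 14 libraries.

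**Figure D2:**
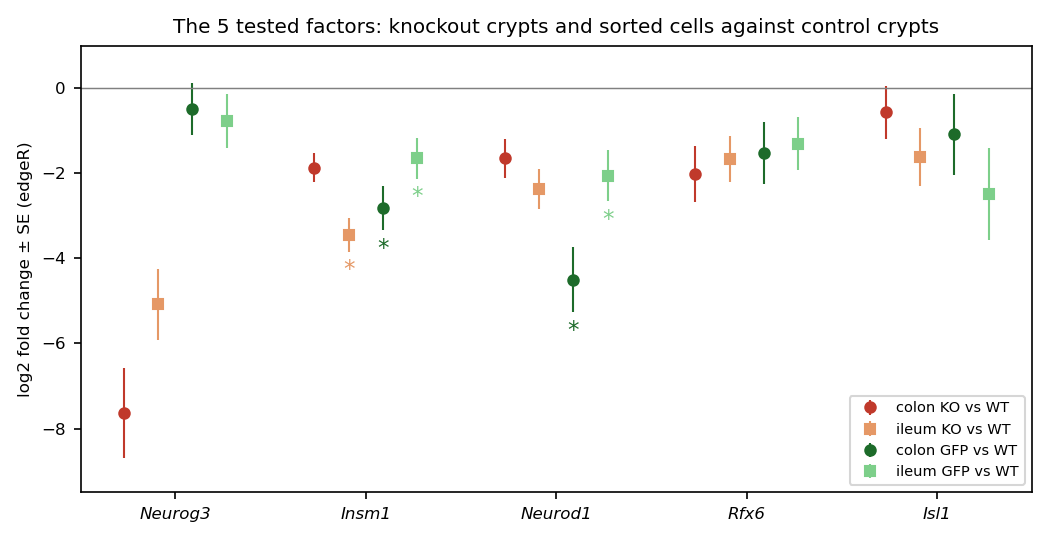
Log2 fold change with its SE (y axis) of the 5 factors tested (x axis) in KO and GFP against the WT libraries of the same tissue, by edgeR; an asterisk marks an adjusted p under 0.05. Neurog3 is lowest in KO and near 0 in GFP; Insm1 and Neurod1 are below 0 in all 4 comparisons and called in GFP of both tissues.

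Across the 5 members that passed the filter on low counts (Neurog3, Insm1, Neurod1, Rfx6 and Isl1), the KO comparison in colon called 0 by edgeR, beside 0.153% of all genes. At an unadjusted p under 0.05 there were 4; the share of all genes at that looser threshold is not given here for any comparison. DESeq2 called 1 factor, Neurog3 (adjusted p = 0.004714), and 158 genes in all, where edgeR called 22. Over both tissues 3 of the 5 were called, all lower, beside 1.96% of genes called lower. The sorted cells had 2 of 5 called lower in each tissue, Insm1 and Neurod1, beside 23.6% of all genes called lower in colon and 28.1% in ileum. In either direction 45.9% of genes were called in colon and 52.8% in ileum, so a call in sorted cells does not set a gene apart. The KO and GFP comparisons use the same WT libraries, and their values are therefore only set side by side. The interaction test of the KO effect called 0 of 5 members (1 at an unadjusted p under 0.05, 0 by DESeq2), against 0.00694% of genes. That of the GFP difference also called 0 of 5 (1 unadjusted, 0 by DESeq2), against 2.19% of genes.

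Nkx2-2, a homeodomain factor of early and maturing endocrine cells, was, like Neurog3, at or near 0 in knockout crypts and not far from control in sorted cells. It had 8 and 12 reads in colon WT (0.692 and 0.82 CPM), 2 and 0 in colon KO (0.144 and 0 CPM) and 8, 5 and 4 in colon GFP (0.85, 0.623 and 0.598 CPM). In ileum it had 7 and 7 in WT (0.533 and 0.582 CPM), 0 and 2 in KO (0 and 0.15 CPM) and 3, 8 and 3 in GFP (0.511, 0.979 and 0.428 CPM). GFP and WT overlapped in both tissues, and KO lay below both. The ratio of WT to KO was 10.7 (2.61 to 94.6) in colon and 7.26 (1.67 to 65.8) in ileum, and that of GFP to WT was 0.922 (0.454 to 1.85) and 1.2 (0.528 to 2.71). Nkx2-2 failed the filter; with no filter its edgeR adjusted p for KO was 0.5163 in colon and 0.4354 in ileum. Its antisense gene Nkx2-2os had 4 reads in all, in colon GFP.

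Rfx6, a winged-helix factor needed for several hormone-producing types, was highest in ileum WT. It had 30 and 15 reads there (2.29 and 1.25 CPM), 7 and 7 in ileum KO (0.547 and 0.526 CPM) and 4, 7 and 4 in ileum GFP (0.681, 0.857 and 0.571 CPM). In colon it had 6 and 14 in WT (0.519 and 0.957 CPM), 3 and 2 in KO (0.217 and 0.14 CPM) and 1, 4 and 1 in GFP (0.106, 0.498 and 0.149 CPM). WT overlapped neither KO nor GFP in either tissue. None of these differences was called: the log2 fold changes were -2.02 and -1.67 for KO in colon and ileum (edgeR adjusted p = 0.4602 and 0.2392) and -1.53 and -1.31 for GFP (0.09903 and 0.08956). Over both tissues the KO value was -1.85 (SE 0.42, edgeR adjusted p = 0.07755), called without ileum WT 2 (0.04706). The colon GFP value was called without colon GFP 2 (-2.47, adjusted p = 0.0353).

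Isl1, a LIM-homeodomain factor of hormone cells, varied widely between the colon GFP replicates. The colon GFP libraries had 0, 3 and 8 reads (0, 0.374 and 1.2 CPM), a range that reached into colon WT with 15 and 12 (1.3 and 0.82 CPM). Colon KO, with 7 and 13 (0.506 and 0.913 CPM), also overlapped WT. In ileum WT had 18 and 10 (1.37 and 0.831 CPM), KO 2 and 7 (0.156 and 0.526 CPM) and GFP 0, 2 and 2 (0, 0.245 and 0.286 CPM), with no overlap of WT and the others. No comparison called Isl1; the nearest was ileum GFP against WT, -2.49 (SE 1.08, edgeR adjusted p = 0.06734). With no filter on low counts that difference was called (0.02908).

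Pax6, a paired-box factor that activates the glucagon gene, had 8 and 7 reads in colon WT, 2 and 4 in colon KO and 4, 5 and 8 in colon GFP, where GFP and WT overlapped at a ratio of 1.23 (0.578 to 2.64). In ileum it had 9 and 12 in WT, 4 and 2 in KO and 2, 2 and 3 in GFP, with WT above all the others. Fev, an ETS factor also known from serotonin neurons, had 7 and 8 reads in colon WT, 2 and 7 in KO and 3, 3 and 1 in GFP. In ileum Fev had 14 and 9 in WT, 1 and 1 in KO and 0, 1 and 2 in GFP, and WT to KO came to 11.9 (2.95 to 104). Pax6 and Fev failed the filter, as did Pax4 and Nkx2-2. With no filter on low counts, none of these 4 was called in KO or GFP of either tissue; the lowest edgeR adjusted p was that of Fev in ileum GFP (0.06101), and that fit called 0.242% of genes in colon KO, 1.06% in ileum KO, 25.3% in colon GFP and 29.2% in ileum GFP.

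Set side by side, the early and the late factors were both highest in control crypts. Pooled over libraries, the 4 early factors summed to 7.1 CPM in colon WT, 1.82 in colon GFP and 1.57 in colon KO. The 5 late factors summed to 3.7, 2.4 and 1.5 CPM in the same groups. In ileum the early sum was 7.35 CPM in WT, 2.52 in GFP and 0.766 in KO, and the late sum was 5.21, 2.04 and 1.26. Early and late sums are not compared with each other as levels, since the genes differ in length. Every KO and GFP library was below both WT libraries of its tissue in both sums.

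**Figure D3:**
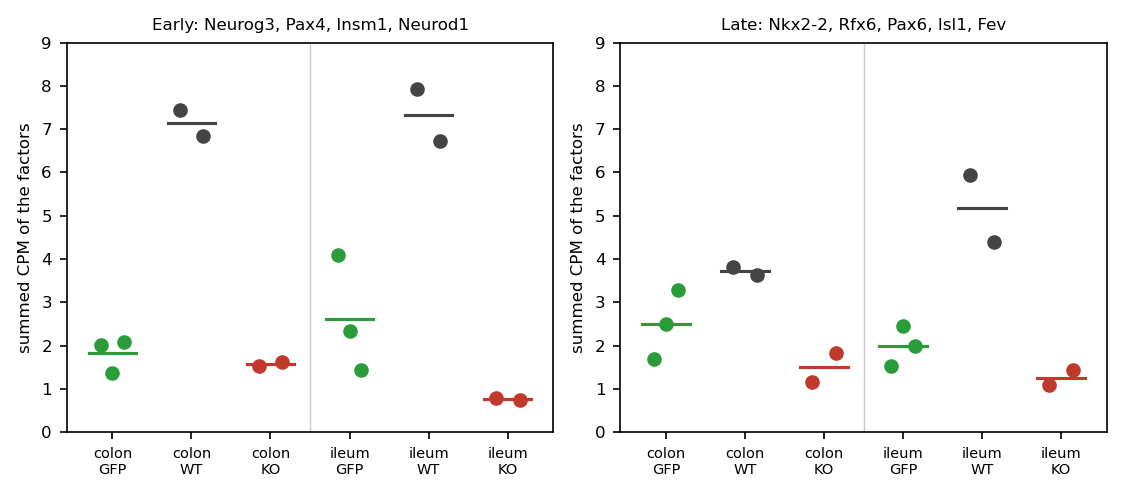
Summed CPM of the 4 early factors (left) and the 5 late factors (right) by group (x axis); points are libraries and bars the group mean. WT is above KO and GFP in every panel and tissue, with colon GFP 3 at 3.29 CPM close to the colon WT libraries (3.81 and 3.62) in the late sum.

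Neurog3 and Neurod1 were counted in the same libraries, so their counts can be set against each other without scaling. The reads of Neurog3 and Neurod1 numbered 48 and 56 in colon WT, 32 and 2 in colon GFP, and 0 and 19 in colon KO. In ileum they numbered 41 and 63 in WT, 20 and 12 in GFP, and 1 and 12 in KO. As a share of all reads of the 9 factors, the share of Neurog3 was 40.0, 25.8 and 27.8% in colon GFP, at most 19.2% in colon WT and 0% in both colon KO libraries. In ileum GFP it was 24.2, 25.6 and 8.33%, so ileum GFP 3 lay below both ileum WT libraries (10.4 and 16.4%) and the other two above them. The share of Neurod1 was 2.86, 0 and 2.78% in colon GFP against 18.5 and 20.9% in colon WT and 29.7 and 16.3% in colon KO. In ileum the Neurod1 shares overlapped between GFP (18.2, 7.69 and 12.5%) and WT (23.1 and 15.7%). These shares are of 24 to 182 reads per library.

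Per kilobase of exon, the 9 factors kept a similar order in the control crypts of both tissues. In colon WT, mean CPM per kilobase was 1.12 for Neurog3, 0.966 for Insm1 and 0.781 for Neurod1, then 0.356 for Fev, 0.268 for Isl1, 0.263 for Nkx2-2, 0.184 for Rfx6, 0.101 for Pax4 and 0.0501 for Pax6. In ileum WT, Insm1 (0.997) and Neurog3 (0.978) led, followed by Neurod1 (0.906), Fev (0.561), Rfx6 (0.44), Isl1 (0.278), Nkx2-2 (0.194), Pax4 (0.0862) and Pax6 (0.0719). In colon the Neurog3 libraries (1.29 and 0.939) overlapped those of Insm1 (1.01 and 0.926), and the Neurod1 libraries (0.761 and 0.801) were below both. In ileum the libraries of these 3 genes overlapped, with Neurod1 at 1.17 and 0.639. Exon length was the union over GENCODE M21 isoforms, 11694 bases for Pax6, which lowers its value. Between colon and ileum WT no member was called by edgeR (0 of 5, 0 at an unadjusted p under 0.05, 0 by DESeq2), against 19.9% of all genes; Rfx6 had the largest value, -1.22 for colon over ileum (SE 0.52, adjusted p = 0.152).

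Other endocrine genes were read from lists of known regulators and products. Of 24 endocrine products, 11 were lower and 3 higher in colon GFP than in WT by edgeR, and 14 were lower and 2 higher in ileum GFP. Over all genes 23.6% were called lower and 22.3% higher in colon, and 28.1% lower and 24.6% higher in ileum. Their median log2 fold change was -1.31 in colon and -2.25 in ileum (-2.02 with the 3 genes without reads in 1 group set to their bound), against 0.01 and -0.06 over all genes. Cpe, which trims prohormones, fell by 3.91 in colon (edgeR adjusted p = 3.68e-06) and 5.5 in ileum (3.97e-07), and Chga, chromogranin A of the secretory granule, fell by 3.69 in colon (2.94e-05). The exceptions, chosen after their values were seen, were Sct (secretin), up by 2.57 in colon and 2.85 in ileum, Slc18a1 (a vesicular monoamine transporter), up by 1.59 and 2.19, and, in colon, Pcsk1 (a prohormone convertase), up by 1.49. Sct was at 54.9 ± 15.9 CPM (SD, n = 3) in colon GFP and 9.44 ± 9.78 (n = 2) in colon WT. Fewer colon products were called lower without colon WT 2, a fit that left 1 colon WT library and whose share of all genes is not given here.

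In knockout crypts 7 of the 24 products were called lower in ileum (median -2.21, or -2.17 with 1 gene at its bound) and 0 in colon (median -0.55, or -0.52). Over all genes 1.09% were called lower in ileum KO and 0.146% in colon KO. The ileum count fell without either ileum KO library and rose without ileum WT 1. Each of these fits left 1 library in a group, and how many genes they called in all is not given here. In colon DESeq2 called 1 product, beside 158 genes in all. Gcg, proglucagon, fell by 2.45 in ileum KO (edgeR adjusted p = 0.00179), a call kept in all 11 alternatives. Tph1, which makes serotonin, fell by 2.77 (0.0279), and without ileum KO 1 or ileum KO 2 it was not called. The test of the difference between tissues called 0 of the 24 products.

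The 20 other endocrine regulators (15 of them tested) moved both ways in sorted cells. In colon GFP 5 were higher and 1 lower, and in ileum GFP 6 were higher and 4 lower, with medians of -0.04 and -0.18. Counted in either direction, 6 and 10 of the 15 were called, beside 45.9% and 52.8% of all genes. Runx1t1, a corepressor, rose by 2.86 in colon (edgeR adjusted p = 0.00492) and 5.27 in ileum (1.01e-05), from 0.471 ± 0.196 CPM (n = 2) in ileum WT to 18.6 ± 6.4 (n = 3). Prox1, a homeodomain factor, rose by 2.58 (0.0194) and 3.65 (0.000912), and Rfx3, a relative of Rfx6, rose by 1.95 in colon (0.000507). St18 fell by 2.53 in ileum (0.00596). The colon call of Runx1t1 was lost without colon WT 1, that of Prox1 without colon GFP 1 or either colon WT library, and the ileum call of St18 without ileum WT 2. The number higher in colon fell without either colon WT library. These fits left 1 colon WT library, and their share of all genes is not given here. In KO none of 14 tested was called by edgeR in either tissue. DESeq2 called 1 lower in ileum, beside 502 genes in all.

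**Figure D4:**
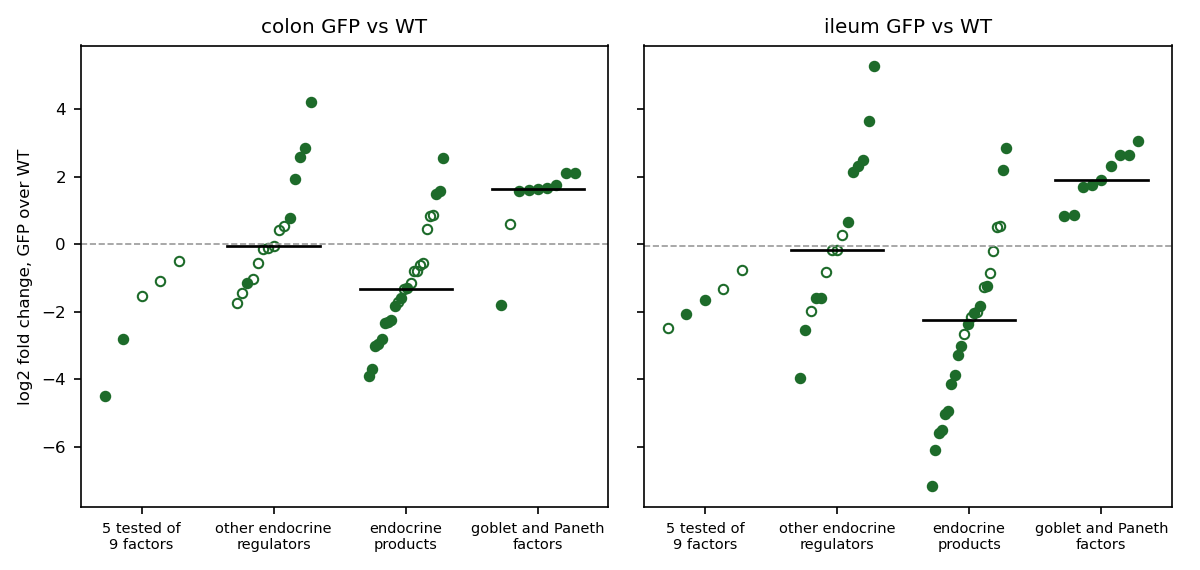
Log2 fold change of GFP over WT (y axis) in colon (left) and ileum (right) for the tested factors and 3 lists of other genes (x axis); filled points have an edgeR adjusted p under 0.05, black bars are list medians and the dashed line is the median of all genes. Points of genes without reads in 1 group are fitted values and not bounds. The endocrine products lie mostly below 0 and the goblet and Paneth factors mostly above.

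Of 9 goblet and Paneth cell factors, 7 were higher and 1 lower in colon GFP and all 9 were higher in ileum GFP (medians 1.64 and 1.91), beside the 22.3% and 24.6% of all genes called higher. In KO 2 of these 9 were called lower in colon and 5 in ileum, beside 0.146% and 1.09% of all genes called lower. The 5 ileum calls were lost in a fit of only the ileum KO and WT libraries. Calls in both tissues also depended on single libraries. Within the Notch pathway, which restrains Atoh1, Hes1 fell by 1.44 in GFP of both tissues (edgeR adjusted p = 0.000373 in colon and 0.000369 in ileum), and the ligand Dll1 rose by 2.56 in ileum (0.000981). Markers of enteric neurons, which also express some of the 9 factors, summed to 4.36 to 10.5 CPM in colon GFP and 11.6 to 20.1 in ileum GFP over 8 genes, against 3.01 to 3.03 and 8.68 to 10.6 in WT and 2.38 to 3.37 and 3.53 to 5.08 in KO. Mean levels of Ret, Elavl4 and Nos1 were higher in GFP than in WT in both tissues, Ret at 13.9 against 6.1 CPM in ileum. Those of Chat, Hand2 and Tubb3 were lower in GFP in both tissues. Chat in ileum was at 0.0408 CPM in GFP against 2.03 ± 2.54 (SD, n = 2) in WT. The ileum WT libraries were at 0.229 and 3.82 CPM, so this gap rests mostly on the higher of them. The part of enteric neurons in the levels of the 9 factors was not tested.

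Among 2179 genes whose group means spread widely (an SD of at least 1 on the log2 scale), those whose group profile was among the 5 most like that of Neurog3 included Agt, Tbc1d16, Rgs16 and Bhmt2. The measure was the root mean square distance of centred log2(CPM + 0.5) means over the 6 groups, 0.29 for Agt and 0.59 to 0.65 for the other 3. The added 0.5 shrinks differences at low levels. It therefore narrows the KO gap of Neurog3, at most 1.87 CPM in a group mean, more than that of Agt. Agt, angiotensinogen, had 9.15 CPM in colon GFP, 7.71 in WT and 2.21 in KO, and 6.77, 10.0 and 1.55 in ileum. The mean profile of the 5 tested factors was nearest to Chgb (0.49), Trpm5 (0.52), Pik3r5 (0.61), Alox5 (0.61) and Tph1 (0.63). Chgb, a granule protein of endocrine cells, had 17.9, 63.0 and 34.4 CPM in colon GFP, WT and KO and 17.5, 62.8 and 13.4 in ileum. Trpm5 is a channel of tuft cells, whose 5 markers summed to 240 CPM in ileum WT 2 and 16.5 in ileum WT 1, so its ileum WT mean of 39.3 ± 46.8 CPM (SD, n = 2) rests on 1 library.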

How the data were processed

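RNA was measured in 14 bulk libraries. The authors deposited raw counts of reads for each Ensembl gene; the submitters' processing notes name TopHat 1.4.1, HTSeq and mm9. No source used here gives the annotation, the strand setting or the version of HTSeq. Symbols and exon lengths came from GENCODE M21, a later build, and promoters with their coordinates from RefSeq on GRCm38.p6. HTSeq's summary lines were left out. Groups came from the labels. The 9 factors and the gene lists were chosen with earlier results of these data known.

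Genes were tested with edgeR 4.0.16 in R 4.3.3 (quasi-likelihood, TMM, filterByExpr, robust), with Benjamini-Hochberg adjustment over all genes and a threshold of 0.05. KO against WT and colon against ileum WT used the 8 crypt libraries (14415 genes); comparisons with GFP used all 14 (15274 genes). Of the 9 factors, 5 passed the filter in both fits. CPM use the TMM factors of all 14 libraries (0.64 to 0.79 in GFP, 1.25 to 1.35 in crypts). The procedure was tested on simulated data. Ratios of pooled counts have 95% conditional exact intervals, and 0 is bounded at 3 counts over the group. Alternatives were DESeq2 size factors, no mitochondrial ribosomal RNA, no filter, the DESeq2 1.42.0 Wald test, other sets of libraries, the replicate or file number as a block, and leaving out each library. All 9 factors are named; of each list, up to 4 called genes by fold change and 2 uncalled by level per comparison could be named, and the 5 genes nearest to Neurog3 and to the mean of the tested factors. Not every gene that this rule names is reported here.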

Additional observations from a re-analysis of the deposited data

How the results depend on the processing

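Of 565 alternative values of single factors, 511 kept their direction and side of the threshold, 26 lost the call, 13 gained one and 15 changed sign, all of these uncalled. The number of all genes called also changed with the setting. In colon KO it went from 22 to 56 with no filter and to 158 with DESeq2. For ileum KO it went from 176 to 245 and to 502. For the other settings below the number of all genes called is not given here, so the counts of factors cannot be set against it. The count of factors called in colon KO, 0, was 1 with no filter, with DESeq2, with all 14 libraries and with only the compared groups. In ileum KO, 1 became 2 with no filter, with DESeq2 and with all 14 libraries, 0 with only the compared groups, and 0 to 2 when a library was left out. For the mean of both tissues, 3 became 0 to 4. In ileum GFP, 2 became 1 with only the compared groups and 0 to 2 when a library was left out, and in colon GFP 2 to 3. Between colon and ileum GFP, 1 became 0 with no filter, the file-number block, DESeq2 or only the compared groups (where Neurod1 failed the filter on low counts), and 0 to 1 when a library was left out. Otherwise the cause was not tested.

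Sign changes were Isl1 with the file-number block, -0.65 for the tissue difference of the GFP effect and -0.7 between the GFP groups. Leaving out 1 library at a time, the tissue difference of the GFP effect ranged over -0.14 to 0.59 for Neurog3, -1.16 to 0.29 for Rfx6 and -0.01 to 2.04 for Isl1, that of the KO effect over -0.86 to 0.17 for Rfx6, and Isl1 between the GFP groups over -0.08 to 1.97. Between WT tissues the ranges were -0.02 to 0.41 for Neurog3, -0.11 to 0.04 for Insm1, -0.56 to 0.29 for Neurod1 and -0.38 to 0.33 for Isl1. Their cause was not tested. Where 1 library was left in a group, it is assumed to vary like the others.

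Libraries with the same replicate number had correlations of -0.09 to 0.08. With 2 or 3 libraries per group, these values cannot show whether the samples are paired. With the replicate block the count was 3 in ileum GFP, where Isl1 was gained (-3.57, edgeR adjusted p = 0.01945), and unchanged in the other 8 comparisons. File numbers shared by a colon and an ileum library, whose meaning the labels do not give, had correlations of 0.31 and 0.27 in crypts and 0.03 and 0.09 in GFP. Depth limits Pax4, Nkx2-2, Pax6 and Fev most, with 0 to 14 reads per library.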
